A study of Mus musculus with 24 samples.

Results

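Mouse ID8 ovarian cancer cells exposed to a low dose of interferon epsilon (IFN epsilon), 10 IU/ml for 3 h, were compared with untreated ID8 cells on Agilent single-colour expression arrays. The arrays were chosen by sample title and paired by replicate number, which gave 3 arrays of IFN epsilon 10 and 6 of untreated cells, 9 of the 24 arrays of the series. They held 6 of its 21 biological samples, because each of the 3 untreated samples was hybridised on 2 arrays, which were averaged here. All wells were seeded with 150000 ID8 cells in RPMI medium with 4% serum 24 h before stimulation. The treated wells received recombinant mouse IFN epsilon, and the labels name PBS as the vehicle of the control. Wells of one treatment were combined into 1 sample, each replicate was made on its own date, and 100 ng of RNA was labelled per sample. ID8 is 1 established line of mouse ovarian surface epithelial origin, so the replicates are cultures of the same line. Groups used beside this pair were IFN epsilon at 100 and at 1000 IU/ml, with 3 samples each, and IFN beta at 10 IU/ml, with 2 samples, since the submitters marked its array of date 3 as excluded. IFN beta at 100 IU/ml, with 2 samples after the same exclusion, and at 1000 IU/ml, with 3 samples, entered the fit for its estimate of the spread.

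Type I interferons signal through a receptor made of the chains IFNAR1 and IFNAR2. The kinases JAK1 and TYK2 bound to the receptor phosphorylate STAT proteins, which join IRF9 in the complex ISGF3, and ISGF3 binds the interferon-stimulated response element (ISRE) in the promoters of its target genes. IFN epsilon is the family member that epithelial cells of the female reproductive tract make constitutively, whereas IFN beta is induced by infection.

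Promoters of genes higher with IFN epsilon 10 are shown first, because the 10-base ISRE core, made of GAAA, any 2 bases and GAAA again and searched on both strands, was present in 30 of the 58 that the promoter table holds. The windows were read from the RefSeq promoter table of GRCm38.p6, run 5′ to 3′ on the strand of the gene, lie entirely upstream of its start and carry the core, or its reverse complement, in capitals. In Isg15 the capitals join 3 overlapping cores.
Ifit1, chr19:34640755-34640843 on the plus strand: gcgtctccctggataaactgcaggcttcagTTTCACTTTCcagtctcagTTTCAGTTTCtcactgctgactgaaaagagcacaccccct
Ifit3, chr19:34583343-34583446 on the plus strand: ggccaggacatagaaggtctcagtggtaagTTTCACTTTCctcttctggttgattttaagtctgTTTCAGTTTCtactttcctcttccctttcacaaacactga
Isg15, chr4:156200845-156200926 on the minus strand: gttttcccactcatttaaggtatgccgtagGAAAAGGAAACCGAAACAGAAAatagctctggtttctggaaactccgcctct
Oas3, chr5:120777695-120777764 on the minus strand: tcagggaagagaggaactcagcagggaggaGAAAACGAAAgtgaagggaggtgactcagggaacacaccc
Igtp, chr11:58199492-58199555 on the plus strand: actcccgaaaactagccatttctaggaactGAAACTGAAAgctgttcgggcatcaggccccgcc
Stat2, chr10:128270248-128270315 on the plus strand: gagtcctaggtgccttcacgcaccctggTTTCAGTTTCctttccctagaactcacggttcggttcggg
Gbp7, chr3:142530253-142530322 on the plus strand: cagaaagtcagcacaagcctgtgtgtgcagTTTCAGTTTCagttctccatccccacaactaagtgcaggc

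The response to 10 IU/ml was a rise of interferon-stimulated genes with no called fall. Of 14425 genes tested, 72 were higher with IFN epsilon 10 than in untreated cells and 0 were lower. The test was limma's moderated test with the replicate number as a block, fitted over 19 samples in 7 groups. A gene was called at a p under 0.05 after Benjamini-Hochberg adjustment. The called share was 0.499% of the genes tested. Of the 72 genes, 61 rose at least 2-fold, 31 at least 4-fold and 7 at least 8-fold. Their median log2 fold change was 1.72, while that of all genes tested was -0.0028. In 70 of them all 3 treated samples lay above all 3 untreated samples, a pattern found in 1.77% of all genes tested. In the 29 called genes with several probes every probe was higher, and all probes passed in 19. The 2 genes whose groups overlapped were Agrn, which encodes the matrix proteoglycan agrin, and Ddx24, an RNA helicase. All treated samples lay below all untreated samples in 0.984% of genes.

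The number of calls depended on the pairing by date and on the spread shared by all groups. Without the replicate block 29 genes were higher (0.201%), all of them among the 72. With only these groups in the fit, 0 genes passed in limma and 733 had an unadjusted p under 0.05. For reading this and later counts of that kind, 5% of 14425 genes is 721, and the fit over all groups gave 429. Leaving out date 1 or date 2 also gave 0 calls, with 363 and 440 genes at an unadjusted p under 0.05, and leaving out date 3 gave 55. Leaving out the untreated sample of date 2 alone gave 47. With the 2 excluded arrays, both of IFN beta, in the fit 0 genes passed and 367 had an unadjusted p under 0.05. The 72 genes were higher in every one of these fits, but they were chosen as higher in the same samples. Dropping the block, fitting only these groups or adding the excluded arrays could not change their fold changes, whose median stayed at 1.72. Only the fits that left out a sample or a date could move them. Among genes with a negative fold change the smallest adjusted p from limma was 0.234, and 184 had an unadjusted p under 0.05 against 245 with a positive one.

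The 9 arrays had 75th percentiles of intensity between 643.5 and 1141, and 50.1% to 56.3% of probes were well above background. Date 3 had the dimmest arrays, with percentiles of 643.5 to 791.3. Values below are signals, each a processed intensity as a percent of its own array's 75th percentile, and a signal is compared only within a gene. Of 14 ovarian surface epithelial markers on the array, 12 were well above background on all 9 arrays, among them Krt8, Krt18, Wt1 and Msln, and Pax8 was on none. Ptprc, the pan-leukocyte marker CD45, and 10 more of 17 leukocyte markers were above background on none of them. The summed leukocyte marker signal was 423.4 to 465.4 in untreated and 406.1 to 510.02 in treated samples. Cd3e, Cd4, Itgam, Csf1r, Cd68 and Cd14 were above it on all 9. Of 17 endothelial, fibroblast and adipocyte genes, 9 were above background on all 9 arrays. They were the endothelial Kdr, the adipocyte genes Fabp4 and Lep, and Col1a1, Col1a2, Col3a1, Pdgfra, Dcn and Acta2. Another 6, Cdh5, Tek, Vwf, Lum, Adipoq and Plin1, were above it on none. The summed signal of this list was 25125 to 30907 in untreated and 24328 to 30345 in treated samples. Limma called none of these marker genes, of which Msln and Pdgfrb had an unadjusted p under 0.05. Since the RNA is from bulk cultures, a change in the RNA of every cell and a change in the share of cells responding cannot be told apart.

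Ifit1, an RNA-binding protein that blocks translation of foreign RNA, had the largest rise. Its signal was 18.8, 17.1 and 69.2 in untreated cells on dates 1, 2 and 3, and 151, 499 and 888 with IFN epsilon 10. The lowest treated sample was above the highest untreated sample, and within the untreated samples date 3 stood apart on the high side. The log2 fold change was 3.85 ± 0.42 (SE, 3 samples per group, limma adjusted p = 0.000848). Ifit3, of the same family, went from 24.5, 16.7 and 97.4 to 126, 350.3 and 1519, again highest on date 3 in both groups. Its log2 fold change was 3.57 ± 0.52 (limma adjusted p = 0.00503), and that of its near-identical copy Ifit3b was 3.84 ± 0.51, which the probes may not separate. The plot of signal on each date shows these genes date by date.

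**Figure D1:**
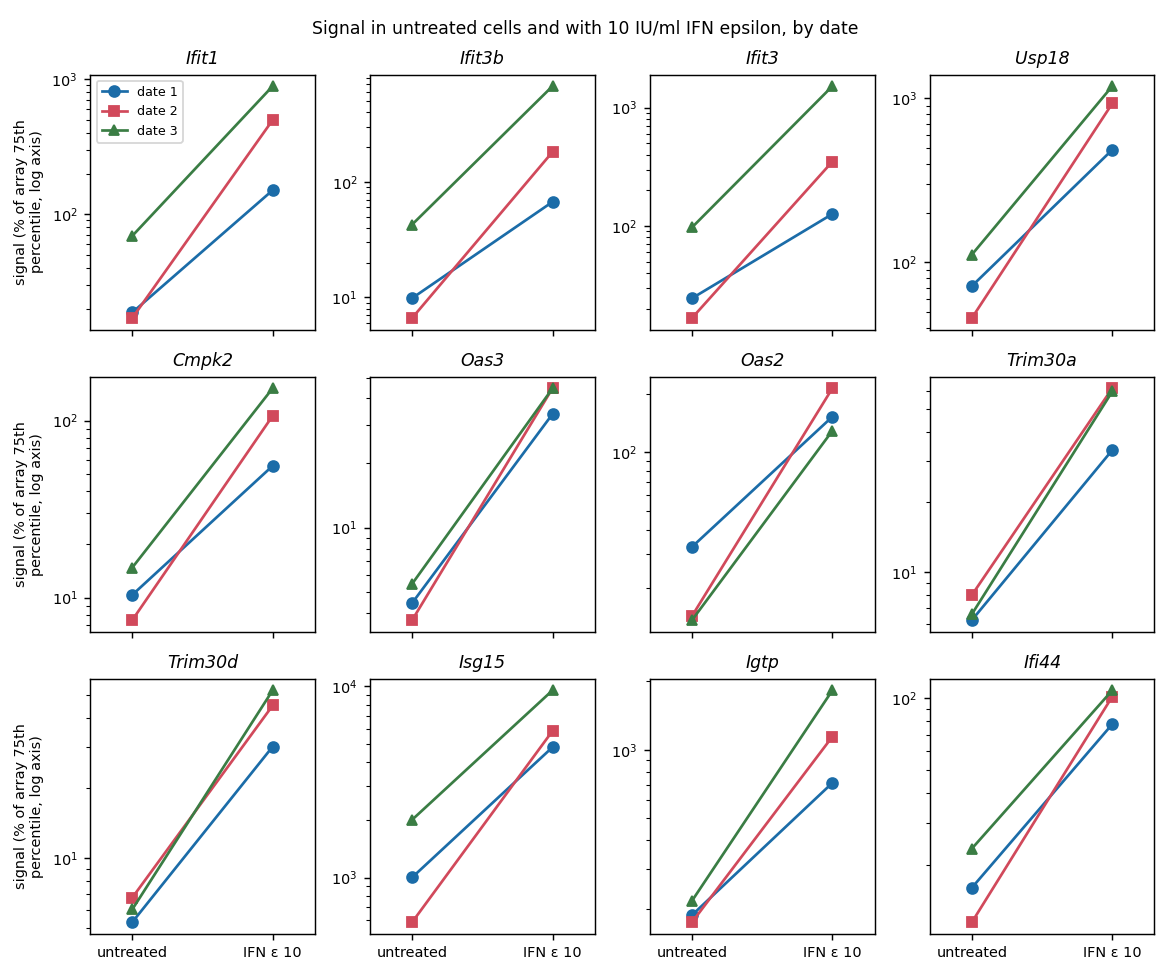
Signal of the 12 genes with the largest rises, as a percent of the array's 75th percentile on a log axis, in untreated cells and with 10 IU/ml IFN epsilon; each line joins the samples of one date. Every line rises, from 18.8 to 151 for Ifit1 on date 1 and from 69.2 to 888 on date 3.

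The Ifit list had 3 of 6 tested members called, with a median log2 fold change of 3.47. The uncalled members included Ifit1bl1, well above background on 0 of 6 untreated arrays and on 3 of 3 treated arrays, with signals of 4.60, 9.79 and 15.3 in treated cells (limma adjusted p = 0.231). Ifit2 had a log2 fold change of 0.78 ± 0.52, with an interval that included 0. None of the Ifit calls was made without the replicate block. Members of lists that did not pass the test were, apart from a panel of interferon genes named whatever their result, picked for mention after their values were seen.

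In the signalling chain Stat2, a subunit of ISGF3, was called, while the receptor chains Ifnar1 and Ifnar2 and the kinases Jak1 and Tyk2 were not. Stat2 signals were 424, 349 and 403 in untreated and 768, 1309 and 1531 in treated cells on the 3 dates, a log2 fold change of 1.56 ± 0.23 (limma adjusted p = 0.00588), smallest on date 1. A further Stat2 probe gave 1.24 and was not called. The receptor chain Ifnar1 had signals of 249, 266 and 143 untreated and 286, 249 and 156 treated, which overlapped, and a log2 fold change of 0.07 ± 0.10 with an interval from -0.15 to 0.29. With every probe tested, another Ifnar1 probe gave -0.41 and was not called. For Ifnar2 the interval ran from -0.15 to 0.20. The kinases Jak1 and Tyk2 had log2 fold changes of -0.01 ± 0.11 and 0.03 ± 0.06.

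Irf7 and Irf9 were the called interferon regulatory factors, 2 of 9 tested, with a list median of 0.21. Irf9, the DNA-binding subunit of ISGF3, had signals of 422, 284 and 540.4 without and 848, 892 and 1098 with IFN epsilon 10. Every treated sample was above every untreated one, at a log2 fold change of 1.23 ± 0.15 (limma adjusted p = 0.00165). Irf7, the factor that amplifies interferon alpha production, was at 666, 391 and 1037 untreated and 2405, 3002 and 5318 treated. Its log2 fold change was 2.38 ± 0.22 (limma adjusted p = 0.000300), and date 3 was highest in both groups. Irf1, an early interferon-induced transcription factor, had signals of 959, 813 and 909.8 untreated and 947, 956 and 1150.4 treated, with an interval for its log2 fold change from -0.42 to 0.79. The interferon genes themselves gave 0 calls of 5 tested in limma, and 0 had an unadjusted p under 0.05. Ifnb1 was above background on none of the 9 arrays, and Ifne, the gene of the cytokine added, did not reach the detection filter in any group.

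Usp18 was the one called member of 17 feedback inhibitors. It encodes the ISG15 protease that also binds IFNAR2 and dampens receptor signalling. Its signals were 71.6, 45.7 and 111 in untreated and 486, 932 and 1189 in treated cells, with no overlap and the lowest value of each group on a different date. The log2 fold change was 3.51 ± 0.29 (limma adjusted p = 0.000300). Socs1, a feedback inhibitor of JAK kinases, was at 23.4, 23.3 and 32.0 untreated and 31.5, 32.0 and 49.5 treated, and its log2 fold change of 0.51 ± 0.50 did not pass limma (adjusted p = 1.00).

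The machinery that attaches the ubiquitin-like protein ISG15 to other proteins had 5 of 11 members higher, with a median log2 fold change of 0.76. Isg15 itself had signals of 1003, 585 and 2008 in untreated and 4807, 5846 and 9526 in treated cells. All treated values were above all untreated ones, though the untreated samples spanned more than 3-fold between dates 2 and 3. The log2 fold change was 2.61 ± 0.24 (limma adjusted p = 0.000300). Uba7, the activating enzyme, was at 157, 146 and 161 untreated and 247, 321 and 395 treated (log2 fold change 1.03 ± 0.19). Herc6, the ligase, was at 59.9, 41.6 and 51.9 untreated and 127, 139.7 and 190.3 treated (log2 fold change 1.57 ± 0.26). Ube2l6, the conjugating enzyme between them, had treated values of 327, 295 and 565 against 205, 183 and 299.6 and missed the threshold in limma (log2 fold change 0.76 ± 0.18, adjusted p = 0.234).

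In the Oas family, whose members make oligoadenylates when they sense double-stranded RNA, 5 of 13 genes were higher and the median log2 fold change was 0.98. Oas3 rose from signals of 4.46, 3.72 and 5.48 to 33.8, 44.6 and 44.5, with differences of 2.92, 3.58 and 3.02 on dates 1, 2 and 3 on the log2 scale. Its log2 fold change was 3.18 ± 0.28 (limma adjusted p = 0.000300). Oas2 signals were 32.6, 14.4 and 13.7 untreated and 152, 213 and 129 treated, with date 1 high in untreated cells, and its log2 fold change was 3.12 ± 0.32. A further Oas2 probe gave 0.37 and was not called. Oasl1, which regulates Irf7 translation, and Oasl2 had log2 fold changes of 2.24 ± 0.38 and 1.91 ± 0.18. Oas1a, at 755, 548 and 294 untreated and 1659.7, 1808 and 775 treated, was lowest on date 3 in both groups and kept a log2 fold change of 1.42 ± 0.22 (limma adjusted p = 0.00995), although its near-identical relative Oas1g, which did not pass, may share its signal.

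Restriction factors, proteins that block steps of viral replication, had 9 of 21 members higher and a median log2 fold change of 0.83. Cmpk2, a mitochondrial nucleotide kinase, went from signals of 10.4, 7.47 and 14.8 to 55.5, 106 and 152, a log2 fold change of 3.21 ± 0.51 (limma adjusted p = 0.0108). Its genomic neighbour Rsad2, which encodes viperin, was at 5.06, 5.31 and 13.4 untreated and 19.5, 51.7 and 70.3 treated with a log2 fold change of 2.54 ± 0.70, and was not called (limma adjusted p = 0.479). Apol9b and Apol9a, near-identical apolipoprotein L genes, already had high signals of 1753, 1060.4 and 1702 and 1974, 1172 and 1821 in untreated cells. They reached 5047, 4285 and 5379 and 5093, 4724 and 5555, with log2 fold changes of 1.73 ± 0.14 and 1.66 ± 0.16. Bst2, the tetherin that holds virions at the membrane, had a log2 fold change of 0.98 ± 0.15, Ifitm3, which blocks entry through endosomes, 0.93 ± 0.16, and the RNA editing enzyme Adar 0.72 ± 0.11. The other Adar probe, also called, gave a larger value.

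Of the sensors of viral RNA and their adaptors, 6 of 14 were higher, with a median log2 fold change of 0.72. Dhx58 (LGP2) had signals of 19.3, 12.8 and 19.9 untreated and 72.3, 94.2 and 104 treated and a log2 fold change of 2.39 ± 0.23 (limma adjusted p = 0.000307). Ddx58 (RIG-I) was at 384, 308 and 507 untreated and 1009, 1159 and 1705 treated (log2 fold change 1.68 ± 0.15), with 4 of 4 probes called. Ifih1 (MDA5) was at 119, 110.0 and 176 untreated and 272, 337 and 558 treated (log2 fold change 1.49 ± 0.21). All treated values of these 3 helicases were above all untreated values. The adaptor Mavs and the kinase Tbk1, which act after the sensors, were not called. Zbp1, a sensor of Z-form nucleic acid that also triggers necroptosis, was at 14.6, 5.45 and 15.7 untreated and 36.6, 31.9 and 74.0 treated, lowest on date 2 in both groups (log2 fold change 2.04 ± 0.39, limma adjusted p = 0.0451). With every probe tested, 1 of 2 Zbp1 probes was called, at fold changes of 2.04 and 2.06 on the log2 scale. On the DNA side, the p200-family genes Ifi205 and Ifi204 were the called members of 11, while Cgas and Sting1 were not called. Ifi205 and Ifi204 had log2 fold changes of 1.44 ± 0.19 and 1.05 ± 0.17. A further Ifi205 probe gave 2.20 and was not called.

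The interferon-inducible GTPases, which act against vacuolar pathogens, had 5 of 10 immunity-related members and 2 of 9 guanylate-binding members higher. Igtp (IRGM3) had signals of 188, 175 and 217 in untreated and 716, 1142 and 1823 in treated cells. Its untreated values were close together, its treated values were lowest on date 1 and highest on date 3, and its log2 fold change was 2.57 ± 0.31 (limma adjusted p = 0.00164). Irgm2, at 195, 158 and 295 untreated and 659.5, 1268 and 1492 treated, had a log2 fold change of 2.37 ± 0.30, and Gvin1, a giant GTPase, one of 2.23 ± 0.32. Iigp1, well above background on 0 of 6 untreated arrays and 3 of 3 treated arrays, had treated signals of 2.82, 8.10 and 12.3 and did not pass (adjusted p = 0.278). Gbp7 was at 13.3, 14.9 and 16.3 untreated and 53.0, 76.7 and 112 treated (log2 fold change 2.38 ± 0.30, limma adjusted p = 0.00207). Gbp6 followed with 2.11 ± 0.37. Gbp2 had signals of 88.4, 133 and 147 untreated and 144, 261 and 592 treated, where the groups overlapped, and a log2 fold change of 1.23 ± 0.43 (adjusted p = 1.00). The Gbp genes are similar in sequence and their probes may share signal.

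**Figure D2:**
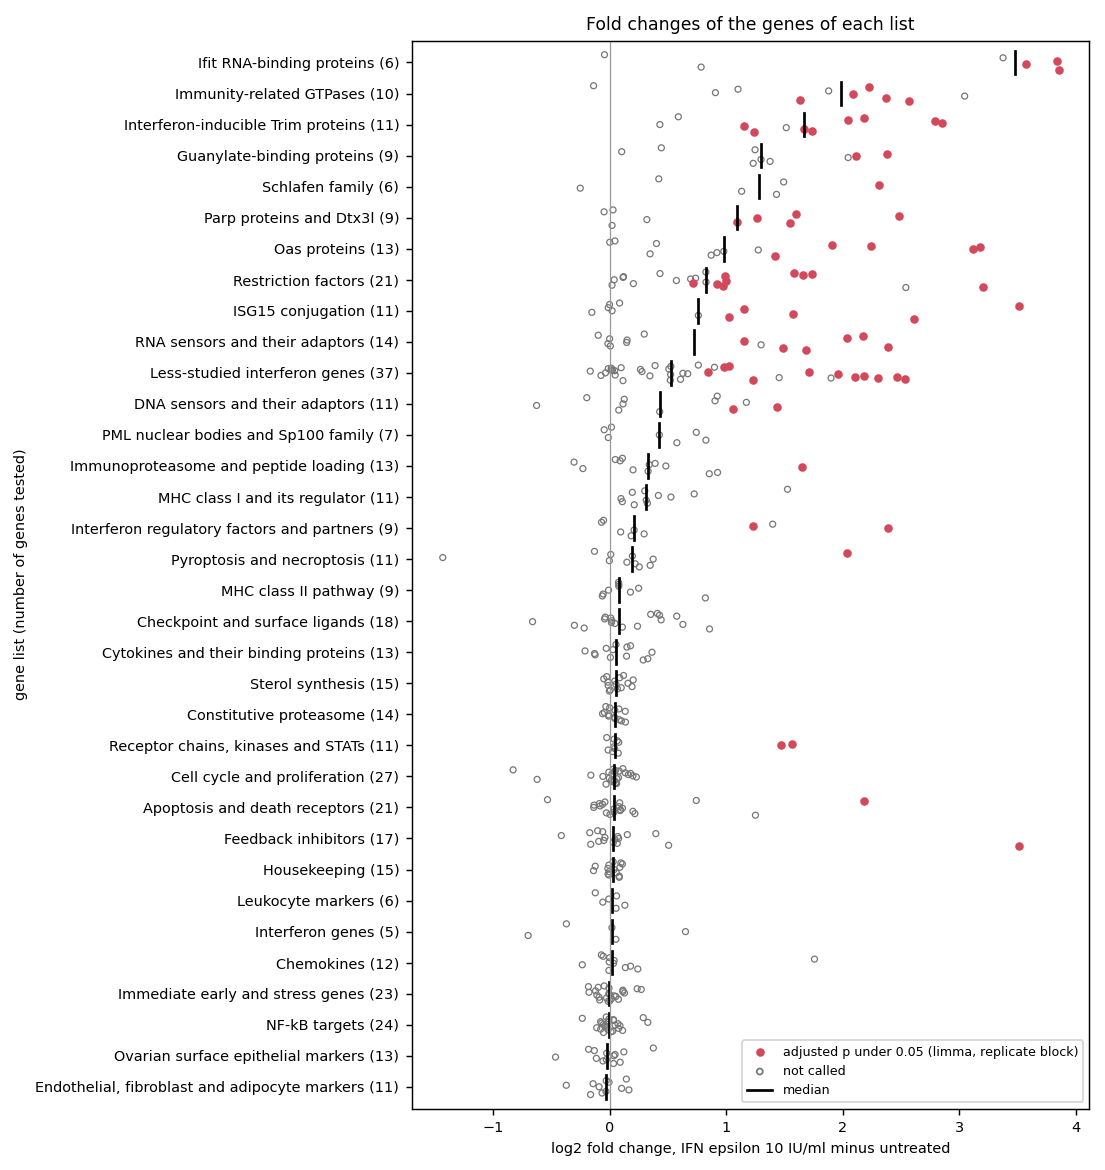
Log2 fold change, IFN epsilon 10 minus untreated, of every tested gene in 34 gene lists ordered by their median; filled points passed limma at an adjusted p under 0.05, open points did not, and the bar is the median of the list. Medians run from 3.47 for the Ifit proteins to values near 0 for the housekeeping and marker lists, and no point left of 0 is filled.

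Interferon-inducible Trim genes had the largest called share of any list, 8 of 11, with a median log2 fold change of 1.67. Trim30a had signals of 6.22, 7.96 and 6.60 untreated and 33.3, 61.4 and 59.5 treated and a log2 fold change of 2.85 ± 0.33 (limma adjusted p = 0.00148). Trim30d, close to it in sequence and not certain to be separate on the array, had 2.79 ± 0.30. Both were lowest on date 1 in treated cells, and neither group overlapped the other. Trim34a and Trim34b, another similar pair, had log2 fold changes of 2.04 ± 0.19 and 2.18 ± 0.24. Trim25, the ligase that activates RIG-I, had 1.15 ± 0.13 from already high signals of 2013, 1927 and 2484.

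Parp14, an ADP-ribosyltransferase, led a list with 5 of 9 members higher. Its signals were 50.3, 45.2 and 55.8 untreated and 169, 306 and 426 treated, its log2 fold change 2.48 ± 0.30 (limma adjusted p = 0.00183), and its treated values were lowest on date 1. Parp9 and Dtx3l, which form a complex with each other, had log2 fold changes of 1.55 ± 0.19, with an uncalled further probe at 0.65, and 1.60 ± 0.25, while Parp1 and Parp2, the DNA damage enzymes, were not called. In the Schlafen family 1 of 6 genes was called, Slfn8, with signals of 8.07, 6.85 and 5.94 untreated and 24.4, 32.9 and 49.8 treated and a log2 fold change of 2.31 ± 0.40. A further Slfn8 probe gave 0.96 and was not called. Slfn9 and Slfn2 had log2 fold changes of 1.49 ± 0.32 and 1.43 ± 0.31 and the same limma adjusted p of 0.105.

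A list of 37 tested interferon genes with less settled functions held 11 of the calls, with a median log2 fold change of 0.53. Ifi44 went from 16.1, 11.5 and 23.4 to 77.5, 101 and 107, a log2 fold change of 2.53 ± 0.24 (limma adjusted p = 0.000308). Phf11d, which shares much of its sequence with Phf11c, had 2.46 ± 0.26. Rtp4, a transmembrane protein that also acts as a receptor chaperone, was at 338, 187 and 618 untreated and 1315, 1913 and 1870.2 treated. Its log2 fold change was 2.30 ± 0.29, and the untreated samples spread more than the treated ones. Xaf1, an antagonist of the apoptosis inhibitor XIAP, was at 164, 93.9 and 316 untreated and 613, 629 and 1174 treated (log2 fold change 2.18 ± 0.26) and was the one called member of 21 apoptosis genes.

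The called genes not yet named had log2 fold changes from 0.74 ± 0.11 for Shisa5, a membrane protein linked to apoptosis, to 2.17 ± 0.29 for Ddx60, a helicase related to the RNA sensors. Ddx60 signals were 9.21, 7.68 and 9.69 in untreated and 33.9, 41.8 and 44.1 in treated cells. Between them lay Tgtp2, Tor3a, Samd9l, Helz2, Irgm1, Ifi35, Lgals3bp, Zc3hav1, Tdrd7, Mitd1, Trim12a, Trim12c, Trim14, Trim69, Parp10, Parp12 and the little-known AW011738, Gm1966 and Gm26637. Helz2 had a further, uncalled probe at 0.04. Below them all were Agrn, at 0.48 ± 0.08, and Ddx24, at 0.43 ± 0.08.

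Antigen presentation genes had few calls at this dose. Tap1, a subunit of the transporter that feeds peptides to MHC class I, was the one called member of 13 immunoproteasome and peptide loading genes. Its signals were 67.8, 71.2 and 62.4 in untreated and 148, 212 and 298 in treated cells, at a log2 fold change of 1.65 ± 0.29 (limma adjusted p = 0.0248). With every probe tested, 1 of 2 Tap1 probes was called, at log2 fold changes of 1.63 and 1.65. Of 11 MHC class I genes limma called 0, and 4 had an unadjusted p under 0.05. All 11 had positive fold changes with a median of 0.31, where 7052 of all 14425 genes tested had positive ones. H2-K1, a classical class I heavy chain, was at 3497, 4427 and 2183 untreated and 4008, 4789.7 and 2729 treated with an interval for its log2 fold change from -0.17 to 0.59. Nlrc5, the transactivator of class I genes, was at 10.3, 13.8 and 7.09 untreated and 20.7, 39.1 and 29.5 treated, which did not overlap, and its log2 fold change of 1.53 ± 0.43 did not pass (adjusted p = 0.492). The 9 MHC class II genes and the 14 constitutive proteasome genes had 0 calls each in limma, with 0 and 1 genes at an unadjusted p under 0.05.

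Of 12 chemokines and 18 checkpoint and surface ligands limma called 0 at this dose, with 1 and 2 genes at an unadjusted p under 0.05. Cxcl10, the chemokine that attracts CXCR3-bearing T cells, had signals of 284, 172 and 479.9 in untreated and 570.0, 634 and 2508 in treated cells. The treated samples were all above the untreated ones, but date 3 was more than 3-fold above the other treated dates, and the log2 fold change of 1.76 ± 0.42 had a limma adjusted p of 0.207. The other 11 chemokines lay between -0.23 and 0.24 on the same scale. Cd274 (PD-L1) was at 10.1, 8.96 and 10.2 untreated and 13.2, 12.7 and 32.7 treated, with date 3 the highest of the treated values (log2 fold change 0.86 ± 0.82). Tnfsf10 (TRAIL) was well above background on 0 of 6 untreated and 2 of 3 treated arrays, so only treated signals of 1.38, 2.23 and 4.30 are given.

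Genes outside the interferon programme stayed near 0 in their medians. The 24 NF-kB targets had a median log2 fold change of -0.0069 and the 23 immediate early and stress genes one of -0.0057. Cell cycle genes (27), sterol synthesis genes (15) and housekeeping genes (15) had medians of 0.042, 0.054 and 0.030. Limma called 0 of these genes, with an unadjusted p under 0.05 in 1 of them, a cell cycle gene. The median half-width of the 95% interval over all genes tested was 0.24 on the log2 scale. That interval is not adjusted for the number of genes, so in a typical gene a call needed a change larger than this. The lowest value in any list was that of Ripk1, a kinase of cell death signalling, at -1.43 ± 0.70. It rested on date 3, where the treated signal was 14.4 against 229 and 212 on the other dates, and it did not pass limma (adjusted p = 1.00).

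The size of the response varied between dates. The median difference over the 72 genes was 1.35 on date 1, 1.98 on date 2 and 1.93 on date 3, with all genes at medians of -0.0067, -0.030 and 0.030. Date 1 gave the smallest difference in 64 of the 72 genes, and date 2 the largest in 39. The same counts were not made over all genes. Each date is 1 pair of samples, so the genes do not count as separate observations of a date. Untreated levels also moved: relative to each gene's mean over the untreated samples the median was -0.012 on date 1, -0.25 on date 2 and 0.22 on date 3. In treated cells the same medians were -0.36, -0.027 and 0.40. The array intensity noted above was lowest on date 3, and the part of intensity or date in these levels was not tested. The widest ranges over dates were those of Ifit1, Ifit3, Ifit3b, Oas2 and Rtp4. For Ifit1 the differences were 3.01, 4.87 and 3.68 on dates 1, 2 and 3, and for Rtp4 1.96, 3.35 and 1.60 on dates 1, 2 and 3.

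**Figure D3:**
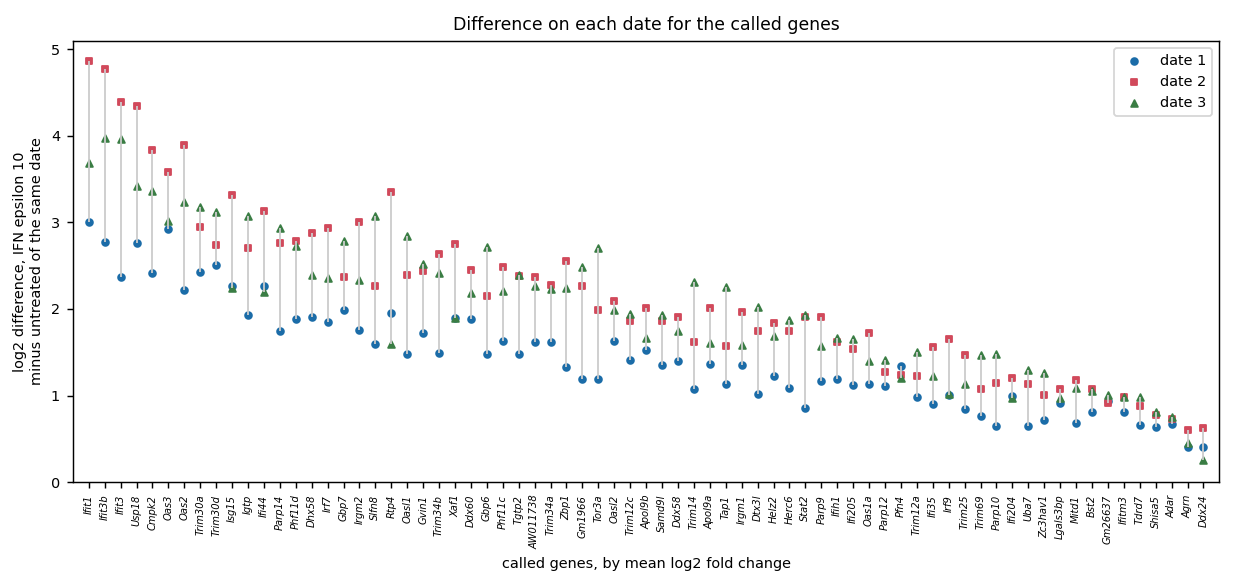
Log2 difference between IFN epsilon 10 and the untreated sample of the same date for 71 of the 72 called genes, ordered by mean log2 fold change; the symbols mark the 3 dates and the grey line their range. All points lie above 0, and date 1 is the lowest point in 63 of those drawn.

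The promoters of the called genes held the ISRE core more often than those of other genes tested, as a description without a test. Promoter windows of 250 bases before to 50 after the gene start were found for 58 of the 72 genes. The core was present in 30 of these 58 (51.7%), against 415 of 11421 tested genes with a promoter (3.63%) and 3.39% of those not called. The element TTCNNNGAA, the gamma-activated site (GAS), was in 11 of 58 (18.97%), against 8.42% of tested genes. Counting a site seen from several starts of a gene once, there were 44 matches of the ISRE core, 13 genes had more than 1, and in 16 genes a match lay within 100 bases before a start. Ifit1, Ifit3 and Ifit3b each had 2 and Isg15 had 3, as printed above for Ifit1, Ifit3 and Isg15. Near-identical pairs such as Ifit3 and Ifit3b or Apol9a and Apol9b share promoter sequence and are counted separately. Cmpk2, Irf7, Irf9 and Tap1 had none in this window, which says only that these letters were absent from it. Genes with the core had a median log2 fold change of 1.86 and those without it 1.58. Usp18, Oas2 and 12 more called genes were not in the promoter table.

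**Figure D4:**
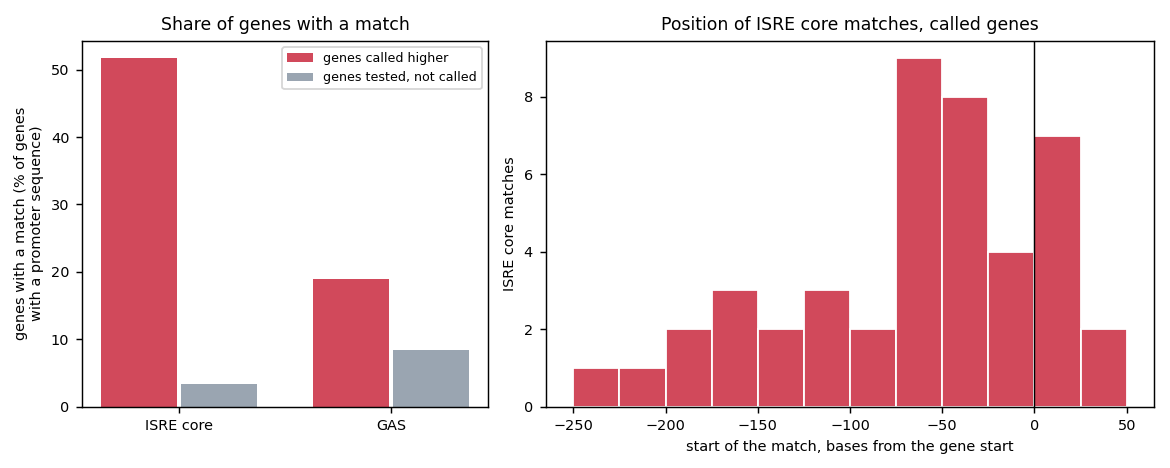
Left, percent of genes with an ISRE core or a GAS match in the promoter window, for called genes and for genes tested but not called; right, number of ISRE core matches in called genes by start position in bases from the nearest gene start, each site once. The ISRE bars stand at 51.7% and 3.39%, and most matches start within 100 bases before the gene start or just after it.

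Dose was compared next, to place 10 IU/ml on the response curve. From 10 to 100 IU/ml, 53 genes were higher and 0 lower in limma (0.367% higher), where 1507 genes had an unadjusted p under 0.05 in either direction. Of the 53, 35 were among the 72 and 18 were not, and both comparisons use the IFN epsilon 10 samples. The median step of the 72 genes was 1.18, against -0.056 for all genes. Among the 72 genes Ifit3 had the largest step, 3.30 ± 0.52, followed by Ifit3b with 3.23 ± 0.51, Cmpk2 with 3.17 ± 0.51, Ifit1 with 2.44 ± 0.42 and Zbp1 with 2.40 ± 0.39, all called. Irf9, with mean signals of 940.1 at 10, 1102 at 100 and 1255 at 1000 IU/ml, had a step of 0.23 ± 0.15, Adar 0.26 ± 0.11, Agrn 0.24 ± 0.08 and Ddx24 0.16 ± 0.08, none of which passed. Isg15 had a step of 0.99 ± 0.24 that did not pass either (limma adjusted p = 0.164). The count of 53 rested on every sample: without the IFN epsilon 10 sample of date 1, 2 or 3 it was 0, 2 and 3, and without the IFN epsilon 100 sample of those dates 5, 0 and 3. It was 0 without date 1 or date 2 and 102 without date 3, and 10 with no replicate block. In the 4 fits with 0 calls, 968 to 1601 genes had an unadjusted p under 0.05.

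Some genes passed only in the step to 100 IU/ml, which does not show that 10 IU/ml left them unchanged. Cxcl10 had a step of 2.68 ± 0.42 (limma adjusted p = 0.0211), Gbp2 2.96 ± 0.43 and Tnfsf10 3.54 ± 0.62, and each was among the 18 genes that passed this step without passing at 10 IU/ml. Tnfsf10 was well above background on only 2 of 3 arrays at 10 IU/ml, so its step starts near background and its size is uncertain. Against the same untreated samples the medians of the 72 genes were 1.72 at 10, 3.01 at 100 and 3.54 at 1000 IU/ml, with 71 and 72 of them called higher at the 2 higher doses, where 1.48% and 4.53% of all genes tested were. Pfn4, a profilin gene, was the one not called at 100 IU/ml. It was close to background throughout, well above it on 0 of 6 untreated arrays, 2 of 3 arrays at 10 IU/ml and 0 of 3 at 100 IU/ml, so no step is given. Its treated signals at 10 IU/ml were 3.01, 3.46 and 1.83. Not all of these were well above background, so no bound on its fold change is given. Pfn4 was called in 2 of the 21 alternative fits that tested it.

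**Figure D5:**
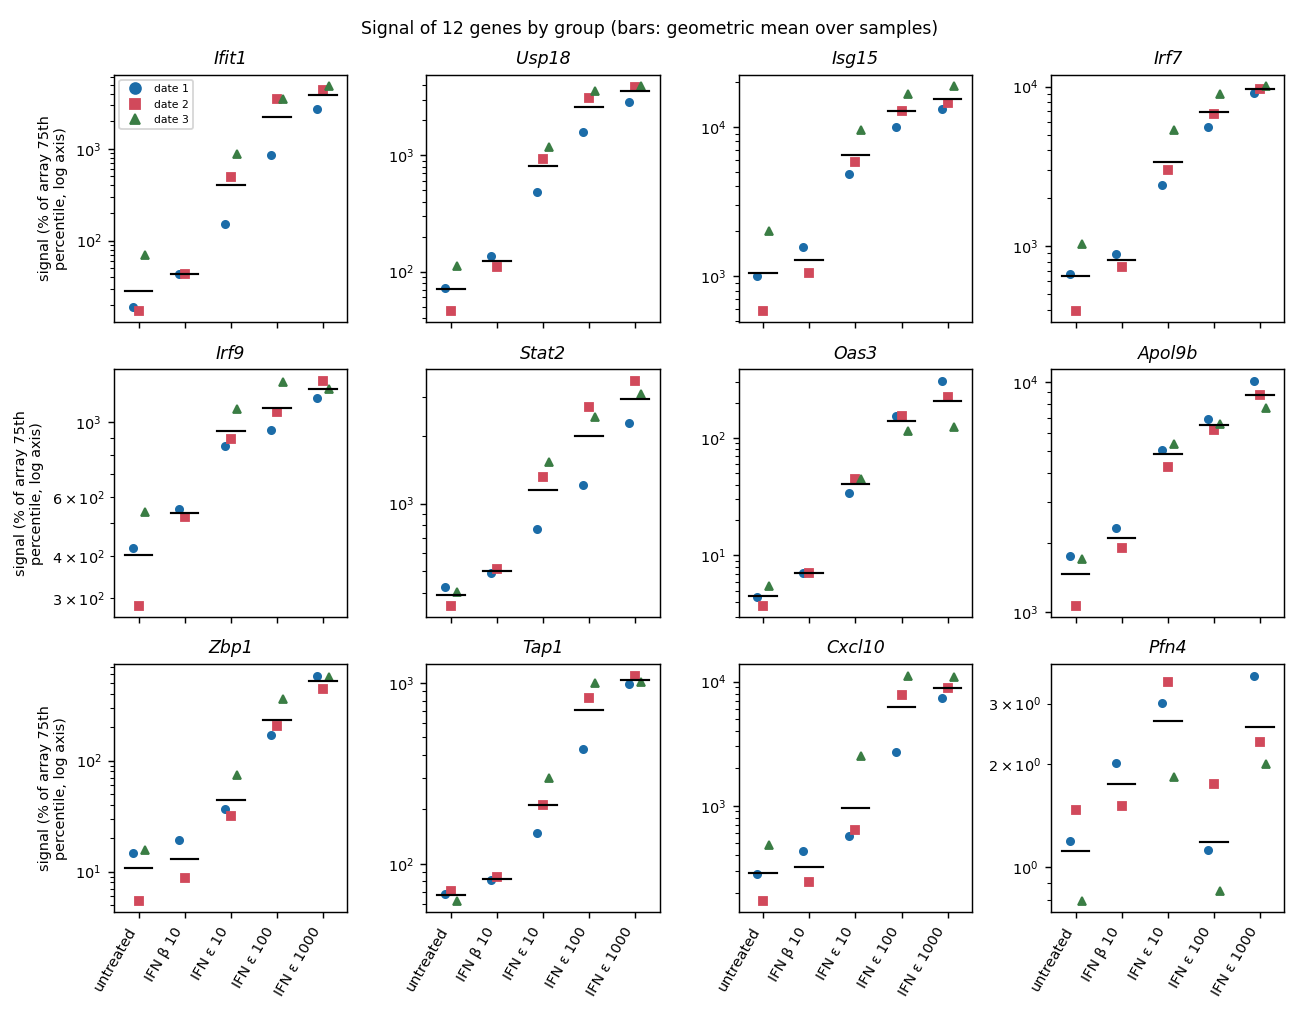
Signal of 12 genes, as a percent of the array's 75th percentile on log axes, in untreated cells, with IFN beta at 10 IU/ml and with IFN epsilon at 10, 100 and 1000 IU/ml; symbols are samples by date and the bar is the geometric mean. From 10 to 100 IU/ml Irf9 steps up less than Cxcl10, Tap1 and Zbp1, and Pfn4 lies near background in all groups.

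With the excluded arrays left out, IFN epsilon gave higher levels than IFN beta at the same nominal dose. Limma called 17 genes higher with IFN epsilon 10 (3 samples) than with IFN beta 10 (2 samples) and 0 lower (0.118% higher), where 457 genes had an unadjusted p under 0.05. All 17 were among the 72, and both comparisons use the IFN epsilon 10 samples. In all 72 the mean was higher with IFN epsilon, though these genes were chosen as high in the same IFN epsilon 10 samples. Their median difference was 1.32 on the log2 scale, against -0.021 for all genes. Trim30a differed by 2.60 ± 0.38 (limma adjusted p = 0.0222), Oas3 by 2.54 ± 0.32, Usp18 by 2.48 ± 0.34, Oas2 by 2.26 ± 0.37 and Trim30d by 2.26 ± 0.34. For Usp18 the IFN beta signals were 136.8 and 110.4 on dates 1 and 2, between the untreated and the IFN epsilon values of those dates. Against untreated cells IFN beta 10 gave 0 calls in limma, with 448 genes at an unadjusted p under 0.05, and the median over the 72 genes was 0.44. These values leave out the IFN beta 10 array of date 3, which the submitters excluded. With the 2 excluded arrays in the fit 0 genes differed between the interferons, with 500 at an unadjusted p under 0.05, and the median difference over the 17 genes fell from 1.89 to 0.69. On date 3 the direction was the opposite: over the 72 genes the excluded IFN beta 10 array lay a median of 3.21 above the untreated sample, and the IFN epsilon 10 sample 1.93 above it. Leaving out the IFN epsilon 10 sample of date 2 or of date 3, or the IFN beta 10 sample of date 1, also left 0 genes higher (and 1 lower without the IFN epsilon sample of date 2), with 653, 319 and 335 at an unadjusted p under 0.05. Without the IFN beta 10 sample of date 2, 9 genes were higher, none of them among the 17, and 2 were lower. Without date 1 or date 2 altogether 0 passed, with 325 and 1478 at an unadjusted p under 0.05, and with only these groups in the fit 0 passed, with 309.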

How the data were processed

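ID8 cells were profiled on Agilent arrays of 62976 spots in 9 arrays of untreated and IFN epsilon 10 cells, with the other groups of the series in the fit. The processed signal is an intensity that Agilent Feature Extraction 11.0.1.1 subtracted for background within each array, per the file headers, and the authors' deposited table holds log2 values. R 3.6.1 and limma 3.42.0 are listed in the submitters' processing notes, with the order of steps not given in the sources used.

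Each intensity was divided by the 75th percentile of its array before log2 was taken, leaving out control spots and outlier flags (79 to 245 spots per array); 0 spots were saturated. Of 56605 probes, 32994 were named through RefSeq accessions of GRCm38.p6, for 22911 genes. Probes had to exceed background clearly in 2 or more samples of some group, and a gene was read from its brightest such probe, which left 14425 genes. The 2 arrays of an untreated sample were averaged, and 2 arrays that the labels mark as excluded were left out.

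Groups were compared with limma 3.58.1 (lmFit and eBayes) in R 4.3.3, over 7 groups and 19 samples with the replicate number as a block, and p-values were adjusted over all genes. Same-numbered samples come from one date, per the series design text, and their deviations from the group means correlated at 0.626, 0.661 and 0.748. Whether replicates were separate cultures is stated only through those dates. The number of arrays limits the precision. The planned normexp alternative used median spot signals because the files hold no mean signal.

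The members and gene lists were chosen with earlier results of these data known. Genes were named by rule: the 25 largest rises and 5 largest falls among the calls, the 3 largest called members of each list, a panel of interferon genes whatever their result, and the 5 extremes of the dose step, of the range over dates and of the difference from IFN beta. A few genes are not reported here. The scripts were tested on simulated data.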

Additional observations from a re-analysis of the deposited data

Results flagged for a closer look

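Of 10036 probes tested without a gene name, 24 were higher with IFN epsilon 10 in limma, beside 72 of 14425 named genes. Their log2 fold changes ran from 0.77 to 3.10, and 0 were lower. Several of the 24 probes share a transcript or a stretch of the genome, so they are not 24 separate genes. The array of IFN beta at 10 IU/ml from date 3, which the submitters marked as excluded, lay a median of 3.21 (log2) above the untreated sample of that date over the 72 called genes, and 71 of them were above it. The excluded array of IFN beta at 100 IU/ml from that date lay a median of 3.47 above it, with all 72 genes above. The IFN beta 10 samples kept in the fit had a median of 0.44 over the same genes. The test of IFN epsilon 10 against IFN beta 10 at equal nominal doses called 17 genes higher with IFN epsilon.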

How the results depend on the processing

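All 72 genes were higher in every alternative that tested them, but they were chosen as higher in these same samples. Pfn4 was not tested under the stricter filter on dim probes. Fits with no replicate block, only the groups compared, an intensity trend or the excluded arrays leave these fold changes as they were by construction. Their median was 1.724 in each. Higher calls at 10 IU/ml against untreated cells numbered 62 to 78 under other scalings, filters, values, probes and spread models and with the slide as a block. They were 29 with no replicate block, 0 with only the groups compared, 0 with the 2 arrays marked as excluded (367 at an unadjusted p under 0.05), and 0 to 68 with a replicate or date left out, with 0 to 2 lower. Against IFN beta 10, the 17 became 37 with an intensity trend, 29 with normexp, 10 without a filter, 0 with only the groups compared (309 at an unadjusted p under 0.05), 0 with the excluded arrays, and 0 to 16 with a replicate left out, with 0 to 2 lower. For the step from 10 to 100 IU/ml, the 53 became 89 with a trend, 85 with normexp, 25 with only the groups compared, 10 with no replicate block, 4 without a filter, 0 with the excluded arrays (1219 at an unadjusted p under 0.05), and 0 to 102 with a replicate left out, with 0 to 2 lower. Lower calls in that step were 3 with arrays centred on the median and 1 each with the stricter filter, the deposited table, normexp and the slide as a block. These causes were not tested, apart from fewer samples or more genes by construction. Among uncalled genes, Ifnar1 was -0.41 with every probe tested, Ifnar2 -0.0098 with the untreated array of the same slide, -0.016 with the slide as a block and -0.024 to 0.099 with a replicate left out, and Ifnb1, at background, -0.0091 with quantile normalization and -0.61 to 0.64 with a replicate left out.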
